A study of Mus musculus with 18 samples.

Results

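The 8 genes Gnal, Gnb1, Gng13, Adcy3, Cnga2, Cnga4, Cngb1 and Ano2 encode the olfactory G protein, its adenylyl cyclase and the ion channels of odour transduction. They were taken from the deposited table of TPM, a share of each library's transcripts corrected for length and scaled to a fixed sum, by gene symbol, a rule that uses no measured value, though they were chosen with earlier results of these data known. Each symbol had a single row, so they are 8 of the 23359 symbols in the table, and all 8 were above 0 in all 18 libraries. The libraries were made from cells of the main olfactory epithelium of mice, sorted by a fluorescent reporter, to compare olfactory sensory neurons (OSNs) that use trace amine-associated receptors (TAARs) with cells that are mostly OSNs with odorant receptors (ORs).

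In the Taar5 line, the genotype was Taar5-ires-Cre with lox-L10-GFP, the age was postnatal day 11 to 14, and the groups were 7 libraries of GFP-positive cells (Taar5+) and 9 of GFP-negative cells (control). In the Taar6 line, the genotype was Taar6-ires-Cre with lox-ZsGreen, the age was postnatal day 16 to 17, and there was 1 library of ZsGreen-positive cells (Taar6+) and 1 of ZsGreen-negative cells. All mice carried the Cre and reporter alleles, the labels give the strain as C57BL/6, and the study's reporting summary names a mixture of C57BL/6J and 129 and an older age for both lines. Cre is co-expressed from the targeted Taar locus, so the sort takes cells by the history of that locus, and the reporter-negative cells also hold other cells of the epithelium. The labels do not say whether libraries of a group came from different mice, so p-values measure the spread between libraries, which may be technical.

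An odorant or amine that binds its receptor on the cilia of an OSN activates the G protein Golf. Golf consists of an alpha subunit (Gnal) and a beta-gamma dimer, for which Gnb1 and Gng13 are the subunits abundant in OSNs. The alpha subunit stimulates adenylyl cyclase 3 (Adcy3), cyclic AMP opens a cation channel built from Cnga2, Cnga4 and Cngb1, and the calcium that enters opens the chloride channel Ano2, which amplifies the current. Cnga2 forms the pore and can work alone, whereas Cnga4 and Cngb1 modulate its cyclic AMP sensitivity, its calmodulin inhibition and its delivery to cilia.

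Positions are from GENCODE M21 on GRCm38. Gnb1 is at chromosome 4, 155491361 to 155559269 on the plus strand, Ano2 at chromosome 6, 125690419 to 126040126 on the plus strand, Cnga4 at chromosome 7, 105404568 to 105408742 on the plus strand, and Cngb1 at chromosome 8, 95239045 to 95306585 on the minus strand. Adcy3 is at chromosome 12, 4133103 to 4213525, Gng13 at chromosome 17, 25717171 to 25719406, and Cnga2 at chromosome X, 71991849 to 72010218, all on the plus strand. They range from the 2236 bases of Gng13 to the 349708 bases of Ano2. TPM are corrected for transcript length, and 1 gene can have transcripts of very different length. Cngb1 has 6 annotated coding transcripts, of 536 to 6189 bases, and the longest has 33 exons.

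The promoters of the paired channel subunits Cnga2 and Cnga4 are shown because the ratio of these subunits is compared below. They come from RefSeq on GRCm38.p6 and cover 250 bases before and 50 bases after the transcript start, on the coding strand. Capitals mark matches to CCCNNGGG, the core of the motif bound by the olfactory neuron factors of the EBF family. It reads the same on both strands.
Cnga2, chrX:71991599-71991898: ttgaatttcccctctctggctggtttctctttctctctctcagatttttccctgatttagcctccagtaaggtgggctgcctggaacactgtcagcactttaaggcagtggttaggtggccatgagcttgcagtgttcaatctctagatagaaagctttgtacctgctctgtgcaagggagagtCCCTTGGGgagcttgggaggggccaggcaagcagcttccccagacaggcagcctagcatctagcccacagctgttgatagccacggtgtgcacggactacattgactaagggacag
Cnga4, chr7:105404318-105404617: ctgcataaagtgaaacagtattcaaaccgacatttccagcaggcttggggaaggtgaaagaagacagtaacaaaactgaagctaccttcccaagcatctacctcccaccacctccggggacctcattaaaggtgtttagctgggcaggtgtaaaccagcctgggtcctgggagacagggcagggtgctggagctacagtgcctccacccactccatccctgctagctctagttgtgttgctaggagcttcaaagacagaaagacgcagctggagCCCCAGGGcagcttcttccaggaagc

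Of the 8 genes, 7 had at least 1 promoter entry and 11 entries were found for them. A match to CCCNNGGG was present for 5 genes, in 5 entries. Among all 32851 promoters of the same length, 13.7% held such a match. The match of Cnga2 begins 66 bases before the transcript start and that of Cnga4 24 bases after it. Matches of the other genes are shown with 10 bases on either side, so that the bases around them can be compared.
Gng13, chr17:25717067-25717095: gcatgtcccaCCCCAGGGGagacctgcca
Ano2, chr6:125711111-125711138: aagggaacacCCCGAGGGatggaggcag
Cngb1, chr8:95306697-95306724, minus strand: cactgctggaCCCGTGGGggttgctgct
In Gng13, 2 matches overlap by all but a base, the first beginning 95 bases before the start. The Ano2 match lies 67 bases before the most downstream of its 3 listed starts, and the Cngb1 match lies 129 bases before the start of its long transcripts. No match was found in the entries of Gnb1 and Adcy3. The homeodomain motif TAATTA, searched on both strands, was found in 0 of the 11 entries and in 5.29% of all promoters. These are letter matches, and binding was not measured.

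Some libraries stood apart. In control replicate 2, 5939 rows exceeded 0, while the other libraries of the line had 9866 to 17808, and 603 of 3177 abundant genes (median of at least 50 TPM) were listed at 0 in it. Its 4 sustentacular markers summed to 9078 TPM, against 28.7 to 720.7 TPM in other controls, and it was the lowest control for 7 of the 8 genes. In Taar5+ replicate 5, 4 sustentacular markers summed to 7417 TPM and 4 gland markers to 15568 TPM, against at most 1755 and 209 TPM in other Taar5+ libraries. All 6 mature OSN markers were in the table and summed to 19720 to 25927 TPM in Taar5+ and to 13238 to 45190 TPM in control libraries, so the sorted cells of every library held OSN transcripts. The sums include Stoml3, at 2900 to 7921 TPM in Taar5+ and 8364 to 24318 TPM in control libraries. The log2 fold changes of Omp, Rtp1, Rtp2, Slc17a6 and Ric8b were above 0 (0.053 to 1.05, limma adjusted p from 0.784 to 0.985). Progenitor, horizontal basal and microvillar markers reached at most 120, 181 and 175 TPM in Taar5+ cells and 114, 123 and 608 TPM in controls. The Taar5+ maxima were all in replicate 5, and the other Taar5+ libraries reached at most 15.7, 17.5 and 38.7 TPM. The median library had 3.30, 5.01 and 5.73 TPM in Taar5+ cells, but 62.0, 98.0 and 122 TPM in controls. Markers of ensheathing glia reached at most 101 and 134 TPM, with medians of 18.2 and 58.9 TPM. Immature OSN markers summed to 2112 to 3254 TPM and to 715 to 5743 TPM, blood and immune markers to 5.71 to 1425 TPM and to 4.67 to 6197 TPM, and markers of vomeronasal and noncanonical neurons to 69.7 to 195 TPM and to 60.5 to 299 TPM. The part of these cells in the values below was not tested. In such bulk samples fewer cells of a type and less RNA per cell cannot be told apart.

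All 8 genes were abundant, but over a wide range of levels. Gng13 was the highest, with a mean of 10538 ± 2954 TPM in Taar5+ cells (SD, n = 7) and 9137 ± 2921 TPM in controls (SD, n = 9). It ranked between 2 and 19 among all genes of a library by TPM. Over the 16 libraries of the Taar5 line, the mean level was 9750 TPM for Gng13, 2014 for Gnb1, 1480 for Cnga2, 1373 for Gnal, 931 for Adcy3, 807 for Cnga4, 393 for Ano2 and 114 for Cngb1. Gng13 exceeded Gnb1, Gnal exceeded Adcy3 and Ano2 exceeded Cngb1 in 16 of 16 libraries. The other neighbours in this order overlapped, as Gnb1 exceeded Cnga2 in 14 libraries, Cnga2 exceeded Gnal in 11, Adcy3 exceeded Cnga4 in 10 and Cnga4 exceeded Ano2 in 14. Summed, the 8 genes made up 1.06% to 2.09% of the TPM of Taar5+ libraries and 0.607% to 2.09% of those of controls. These levels assume the transcript lengths used for the TPM, which are not given in the sources used here.

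**Figure D1:**
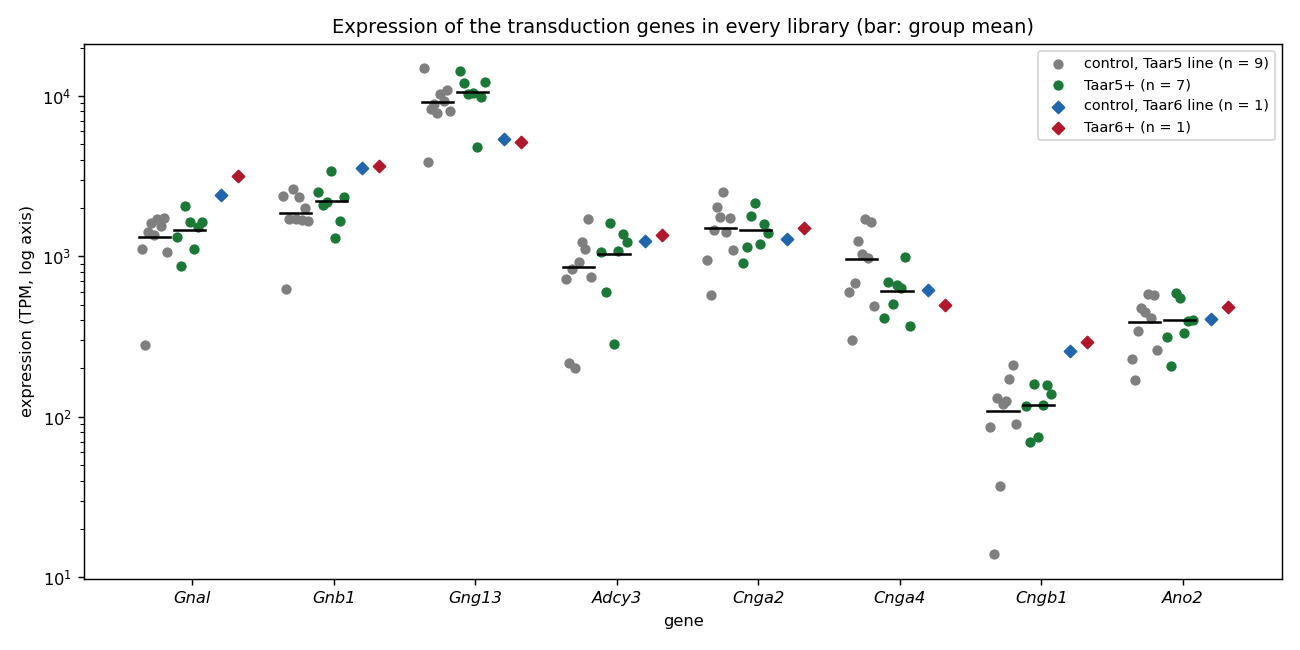
Expression of the 8 genes in every library, in TPM on a log axis. Circles are libraries of the Taar5 line (grey, 9 controls, and green, 7 Taar5+), bars are group means and diamonds are the single libraries of the Taar6 line. The groups of the Taar5 line overlap for every gene, from Gng13 (mean 9750 TPM) to Cngb1 (mean 114 TPM).

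Whether TAAR OSNs carry the same transduction transcripts as control cells was then compared gene by gene, with limma on log2(TPM + 1). None of the 8 genes passed an adjusted p of 0.05, while 21 of all 12502 genes tested did (0.168%). At an unadjusted p under 0.05, the counts were 0 of the 8 genes and 881 of all genes (7.05%). With replicate number as a block, they were 1 of the 8 genes, Adcy3, and 928 of 11781 genes. For 0 of the 8 genes were the groups free of overlap, against 0.144% of all genes. The median log2 fold change of the 8 genes was 0.23, and that of all genes tested 0.020. Without control replicate 2 the median of the 8 genes was 0.021, with 4 higher and 4 lower. Relative to the mean of the mature OSN genes Omp, Rtp1, Rtp2 and Slc17a6, all 8 estimates were below 0. The median was then -0.17 for the 8 genes and -0.38 for all genes. This shift rests largely on Slc17a6, with a log2 fold change of 1.05 and 0 TPM in control replicate 2. Omp, Rtp1 and Rtp2 had 0.38, 0.053 and 0.11, and a reference without Slc17a6 was not run. The width of the intervals sets what the main comparison could have shown. The fitted fold had an upper 95% bound between 1.10 for Cnga4 and 2.49 for Cngb1, and a lower one between 0.434 for Cnga4 and 0.854 for Gnb1, and differences within these bounds could not be told from 0.

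**Figure D2:**
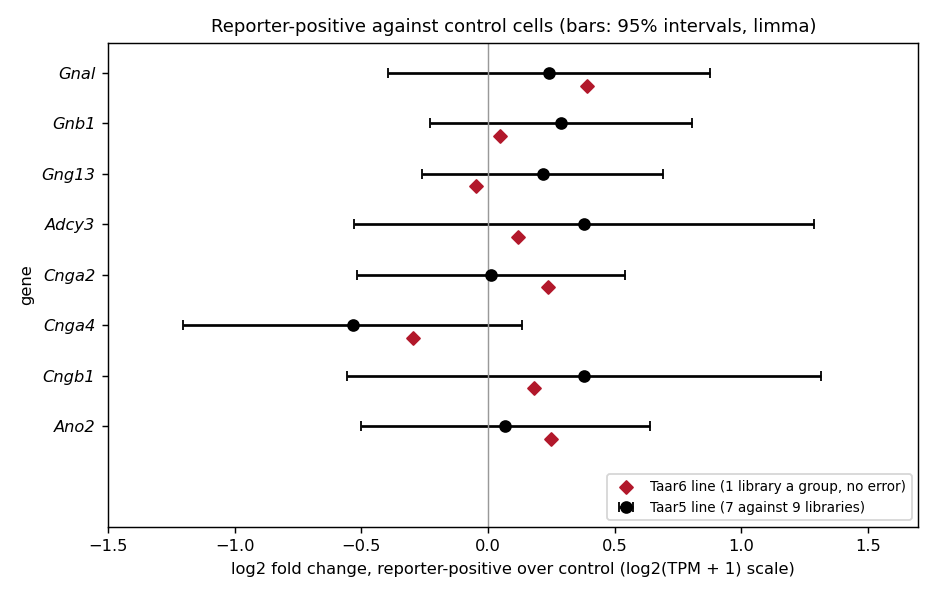
Log2 fold change of each gene, reporter-positive over control cells, on the log2(TPM + 1) scale. Circles with bars are limma estimates with 95% intervals for the Taar5 line (7 against 9 libraries) and diamonds the difference between the 2 libraries of the Taar6 line, which has no error. Every interval of this fit, which has no replicate block, includes 0, and Cnga4 has the lowest estimate, -0.53.

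Among the G protein subunits, Gnal, the alpha subunit, lies on chromosome 18, 67088216 to 67226792, on the plus strand. It had a lowest value of 866 TPM, a median of 1517 and a highest of 2069 in Taar5+ cells, and 280, 1412 and 1720 TPM in controls. Apart from control replicate 2, the lowest library of either group was Taar5+ replicate 2, and the ranges overlapped almost entirely. The log2 fold change was 0.24 (SE 0.30, 95% interval -0.39 to 0.88, limma adjusted p = 0.956). Gnb1, the beta subunit, had 1307, 2176 and 3412 TPM in Taar5+ cells and 621, 1717 and 2619 TPM in controls, again as the lowest, median and highest value. Replicate 4 was the highest library for Gnb1 in both groups. Its log2 fold change was 0.29 (SE 0.25, interval -0.23 to 0.81, adjusted p = 0.947). Gng13, the gamma subunit, had 4821, 10364 and 14283 TPM in Taar5+ cells and 3894, 8920 and 14858 TPM in controls. The lowest libraries were Taar5+ replicate 5 and control replicate 2, and replicate 1 was the highest in both groups. The log2 fold change was 0.22 (SE 0.23, interval -0.26 to 0.69, adjusted p = 0.955). Without control replicate 2, the estimates were -0.018 for Gnal, 0.10 for Gnb1 and 0.071 for Gng13.

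Adcy3, the cyclase of OSN cilia, varied more between libraries than the G protein subunits. It had 284, 1080 and 1612 TPM in Taar5+ cells and 202, 831 and 1697 TPM in controls. Replicate 4 was the lowest library in both groups, and control replicate 2, at 215 TPM, lay next to it. The coefficient of variation was 44.0% in Taar5+ cells and 55.4% in controls, against 27.3% and 34.6% for Gnal. The log2 fold change was 0.38 (SE 0.43, interval -0.53 to 1.29, adjusted p = 0.956). It was 0.16 without control replicate 4, 0.17 without control replicate 2 and 0.66 without Taar5+ replicate 4. With replicate number as a block, Adcy3 was higher in 7 of 7 numbers. The log2 fold change was then 0.57, with an interval of 0.18 to 0.96 that excludes 0. Without number 2, a choice made after seeing the data, the block gave 0.42 (interval 0.13 to 0.71). In neither block fit did Adcy3 pass the adjusted threshold.

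Of the cyclic nucleotide-gated channel subunits, Cnga2 had 909, 1391 and 2148 TPM in Taar5+ cells and 578, 1464 and 2499 TPM in controls. Its log2 fold change was 0.013 (SE 0.25, interval -0.52 to 0.54, adjusted p = 0.996), the smallest of the 8 genes. Cnga4 had 368, 630 and 989 TPM in Taar5+ cells and 299, 974 and 1704 TPM in controls. Taar5+ replicate 6 was the highest of its group, and 4 of the 9 controls lay above it. The log2 fold change was -0.53 (SE 0.32, interval -1.20 to 0.13, adjusted p = 0.868), the lowest of the 8 genes. Without control replicate 2 it was -0.72 (adjusted p = 0.282). It passed the threshold in 2 other fits, with limma array weights (-0.70, adjusted p = 0.0477) and with replicate number as a block and number 2 left out (-0.79, adjusted p = 0.0452). The second of these was chosen after seeing the data, and 1329 genes passed with array weights. Cngb1 had 69.5, 118 and 159 TPM in Taar5+ cells and 13.8, 119 and 211 TPM in controls. Control replicates 2 and 4 were its lowest libraries, and no other was under 69.5 TPM. The log2 fold change was 0.38 (SE 0.45, interval -0.56 to 1.32, adjusted p = 0.956), and it was 0.059 without control replicate 2.

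Ano2, the calcium-activated chloride channel, had 206, 396 and 591 TPM in Taar5+ cells and 170, 415 and 580 TPM in controls. The groups shared almost the whole range. The log2 fold change was 0.069 (SE 0.27, interval -0.50 to 0.64, adjusted p = 0.983).

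Ratios between subunits of a complex were then taken within each library, since they do not depend on how much of the library is OSN RNA when both subunits come from the same cells. Means were compared on the log2 scale with an exact two-sided permutation test over all assignments of the 16 libraries to groups of this size, adjusted over the 6 ratios. None of the 6 ratios passed an adjusted p of 0.05. The ratios of the G protein subunits were close between groups. Gnb1/Gnal was 1.59 ± 0.534 (SD, n = 7) in Taar5+ cells and 1.52 ± 0.420 (SD, n = 9) in controls, a fold of 1.03 (95% interval 0.751 to 1.42, exact permutation p = 0.825, adjusted p = 0.923). Gng13/Gnal was 7.74 ± 3.39 and 7.82 ± 3.38, a fold of 0.982 (interval 0.645 to 1.49, exact permutation p = 0.923). Gng13/Gnb1 was 4.86 ± 1.11 and 5.06 ± 0.918, a fold of 0.951 (interval 0.750 to 1.21, exact permutation p = 0.655, adjusted p = 0.923). The gamma subunit thus stood above the beta and alpha subunits in TPM in every library of the line, with Gng13/Gnb1 from 3.04 to 6.27.

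The mean ratios that involve Cnga4 lay further apart, without passing the test. Cnga4/Cnga2 was 0.437 ± 0.152 (SD, n = 7) in Taar5+ cells, with a lowest value of 0.265, a median of 0.452 and a highest of 0.620. In controls it was 0.619 ± 0.149 (SD, n = 9), with 0.453, 0.617 and 0.943. Below every control lay 4 of the 7 Taar5+ libraries, while the other 3 were within the control range. The fold was 0.684 (95% interval 0.496 to 0.943, exact permutation p = 0.0228, adjusted p = 0.137), so the difference did not pass after adjustment over the 6 ratios. Leaving out each library in turn gave adjusted p from 0.0575 to 0.332. In the Taar6 line, Cnga4/Cnga2 was 0.333 in Taar6+ cells and 0.481 in the control, a fold of 0.691 with no replicates.

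Cngb1/Cnga4 was 0.219 ± 0.107 (SD, n = 7) in Taar5+ cells, with 0.101, 0.187 and 0.377 as lowest, median and highest, and 0.121 ± 0.0597 (SD, n = 9) in controls, with 0.0295, 0.129 and 0.191. Above every control lay 3 Taar5+ libraries. The fold was 1.89 (interval 0.996 to 3.61, exact permutation p = 0.0513, adjusted p = 0.154). The log2 difference was 0.92 for means and 0.54 for medians (exact permutation p = 0.276 for the latter). Cngb1/Cnga2 was 0.0871 ± 0.0306 and 0.0739 ± 0.0376, a fold of 1.29 (interval 0.693 to 2.42, exact permutation p = 0.401, adjusted p = 0.802), and its groups overlapped. Its log2 difference was 0.37, and 0.15 without control replicate 4. As a share of the summed TPM of the 3 subunits, Cnga2 was 66.2% ± 6.99 in Taar5+ cells and 59.5% ± 5.40 in controls, Cnga4 28.1% ± 7.13 and 36.2% ± 4.97, and Cngb1 5.71% ± 1.97 and 4.29% ± 2.005 (SD, n = 7 and 9). These shares of transcripts are not shares of protein subunits. The value of Cngb1 in particular depends on which of its transcripts set the length.

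**Figure D3:**
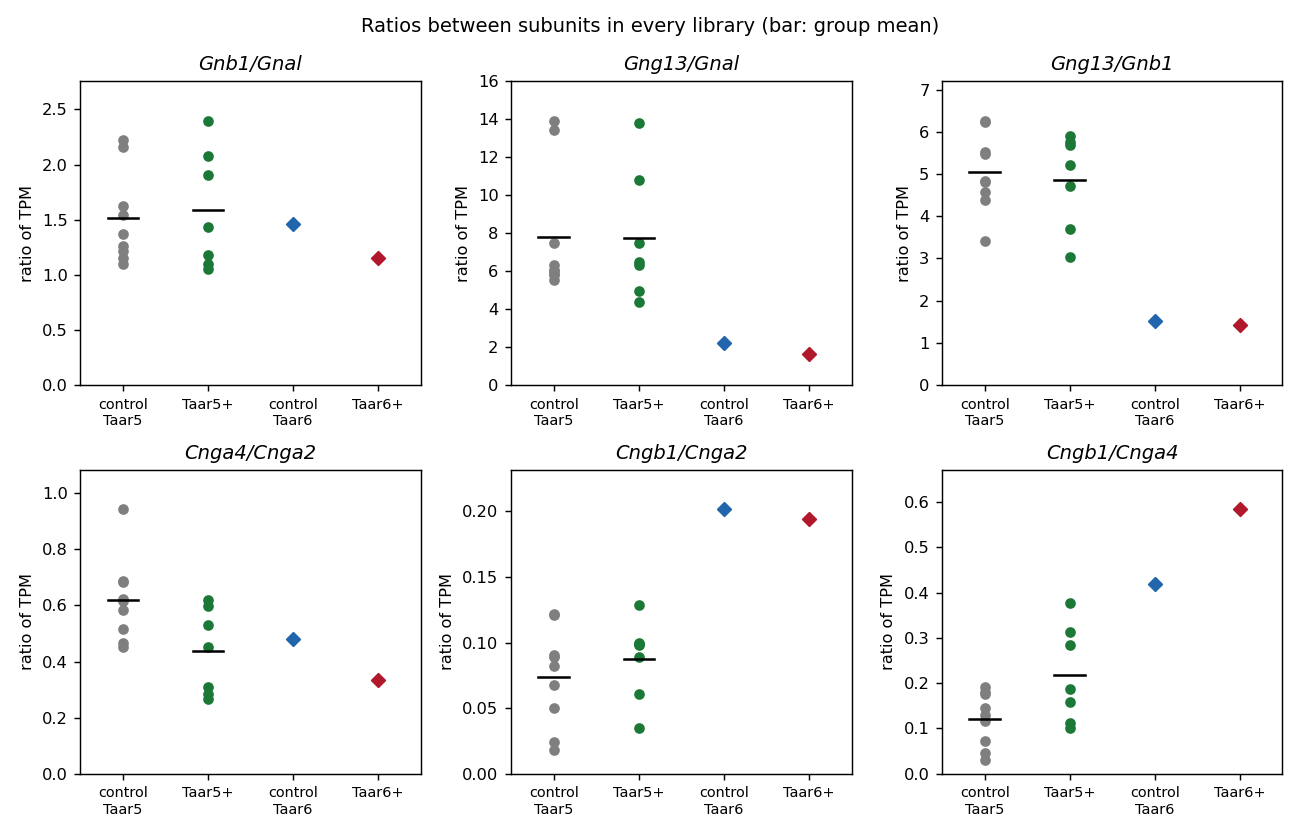
Ratio of TPM between subunits of the G protein (upper row) and of the cation channel (lower row) in every library. Grey circles are the 9 controls and green circles the 7 Taar5+ libraries, bars are means and diamonds are the Taar6 line. Cnga4/Cnga2 lies lower in Taar5+ (mean 0.437) than in control libraries (mean 0.619), with overlap, and Gng13/Gnal and Gng13/Gnb1 are lower in both Taar6-line libraries than in any library of the Taar5 line.

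Each gene was next set against the other members of its own family, to see which members each population expressed. Its share was taken of the summed TPM of the gene and its paralogs. For Gnal the only paralog counted was Gnas, and other alpha subunits, such as Gnao1 at a mean of 94.4 TPM, were left out. Adcy3 made up 99.8% ± 0.202 (SD, n = 7) of adenylyl cyclase TPM in Taar5+ cells and 99.7% ± 0.271 (SD, n = 9) in controls, and the next of its 9 paralogs, Adcy7, had a mean of 0.837 TPM. Cnga2 made up at least 99.88% of Cnga1, Cnga2 and Cnga3 in every library, with Cnga3 at a mean of 0.207 TPM. Gnb1 made up 95.5% ± 0.989 and 96.4% ± 1.85 of the beta subunits, the next being Gnb5 at a mean of 72.9 TPM. Gng13 made up 97.5% ± 1.94 and 96.1% ± 1.90 of the gamma subunits, the next being Gng10 at 90.2 TPM. Ano2 had the lowest mean share of the 6 genes compared in this way, 89.7% ± 7.26 of the anoctamins in Taar5+ cells and 88.6% ± 5.65 in controls. Ano10 was next at 26.2 TPM. None of the 6 shares differed past an adjusted p of 0.05 (exact permutation test, adjusted p from 0.568 to 1.0).

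Gnal made up 97.0% ± 4.48 (SD, n = 7) of the summed TPM of Gnal and Gnas in Taar5+ cells and 93.5% ± 6.09 (SD, n = 9) in controls, a difference of 3.53 percentage points (interval -1.95 to 9.39, exact permutation p = 0.235, adjusted p = 0.568). Its highest values were in Taar5+ cells, where 5 of 7 libraries lay above every control. Gnas, the alpha subunit of most other cells, had 0.317 TPM in Taar5+ replicate 4, 9.37 in replicate 3, 11.996 in replicate 2, 12.2 in replicate 7, 17.2 in replicate 6, 66.7 in replicate 1 and 158 in replicate 5. In the 9 controls it ran from 36.5 to 97.0 TPM. It thus lay below every control in 5 Taar5+ libraries and above every control in replicate 5, the library with high gland markers. Its log2 fold change was -1.88 (SE 0.69, limma adjusted p = 0.426). Gnas was named after its values were seen, and the share of Gnal depends on it, so these counts of libraries are not a test. The difference in the share of Gnal was 1.65 percentage points without control replicate 2 and 5.12 without Taar5+ replicate 5 (exact permutation test, adjusted p = 0.695 and 0.0935).

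Some of the 8 genes varied together between libraries. Correlations of log2(TPM + 1) were computed for the 28 pairs over the 16 libraries. Points share a library, its composition and the scaling of TPM. Gnal and Ano2 had a Pearson r of 0.843 and a Spearman rho of 0.938 (permutation p = 1e-05 for each, the smallest that 100000 permutations can give, adjusted p = 9.33e-05 for r and 0.00014 for rho), and r was 0.890 without the 2 libraries farthest from the median of Gnal. Cnga2 and Ano2 had r = 0.902 and rho = 0.909 (permutation adjusted p = 9.33e-05 for r), with r = 0.850 without the 2 farthest. Adcy3 and Cngb1 had r = 0.901 and rho = 0.924 (permutation adjusted p = 9.33e-05 for r), with r = 0.859 without the 2 farthest, and rho = 0.964 within Taar5+ cells and 0.900 within controls. Both genes were lowest in replicates 2 and 4 in controls and in Taar5+ cells alike. The permutations treat the 16 libraries as independent, so the p-values do not allow for a spread shared by same-numbered libraries. Gnb1 and Gng13 had r = 0.830 and rho = 0.718 (permutation adjusted p = 0.00118 for r), with r = 0.791 without the 2 farthest. Many other genes ranked closer to each of these, as Gng13 was only number 55 by rho for Gnb1, and Gnb1 number 49 for Gng13. Gnb1 and Adcy3, which act at neighbouring steps, had r = 0.137 and rho = -0.150 (permutation p = 0.600 for r).

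**Figure D4:**
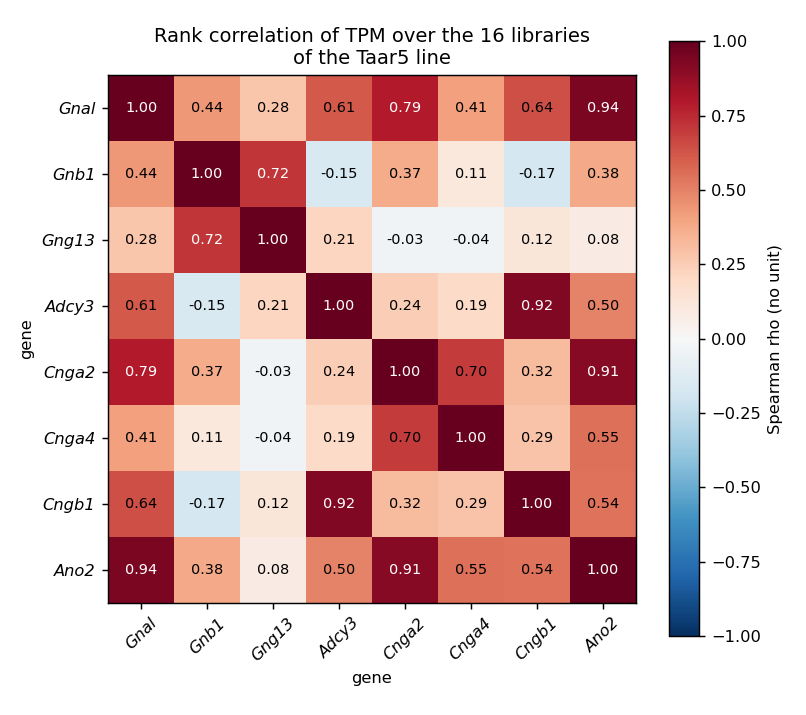
Spearman rho of TPM for each pair of the 8 genes over the 16 libraries of the Taar5 line, from -1 (blue) to 1 (red). Gnal, Cnga2 and Ano2 (0.79 to 0.94), Adcy3 and Cngb1 (0.92), and Gnb1 and Gng13 (0.72) have the highest values.

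The rank correlations of Cnga4 with the other channel genes and Gnal were given within each group. Its Spearman rho over the 9 controls was 0.983 with Ano2, 0.933 with Gnal, 0.917 with Cnga2 and 0.517 with Cngb1. Over the 7 Taar5+ libraries it was -0.214, -0.429, 0.214 and -0.214. Pairs without Cnga4 also had unlike values, such as Gng13 and Cngb1 with 0.417 in controls and -0.393 in Taar5+ libraries, and Gnal and Gng13 with 0.600 and 0.036. Over all 16 libraries Cnga4 and Cnga2 had r = 0.738 and rho = 0.700 (permutation adjusted p = 0.00513 for r), and r fell to 0.548 without the 2 libraries farthest from the median of Cnga2. The differences between the groups were not tested.

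**Figure D5:**
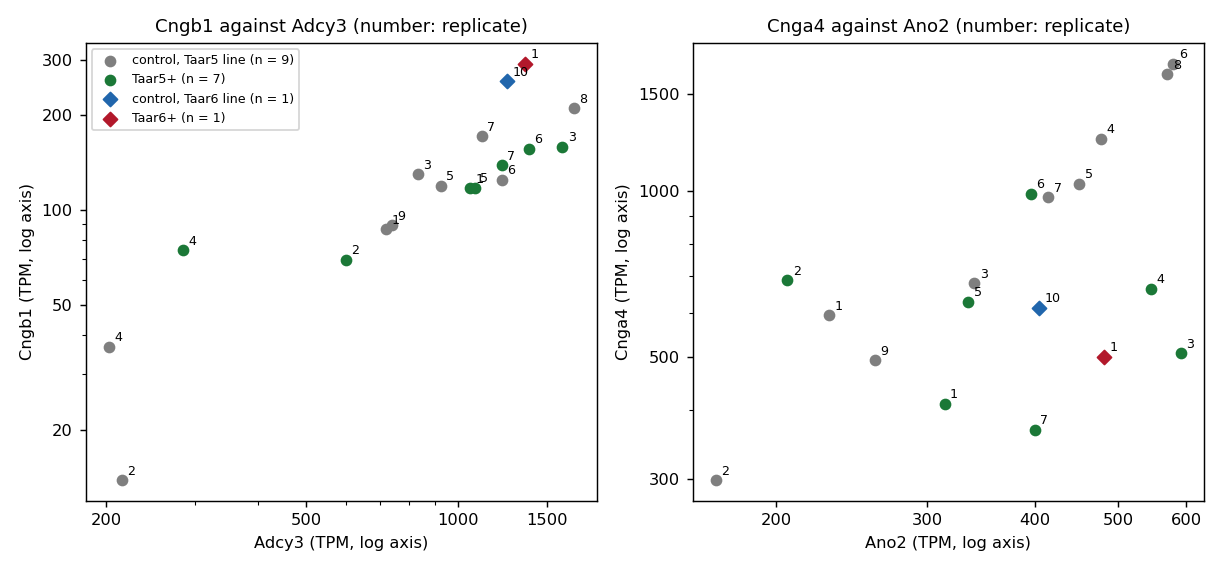
Cngb1 against Adcy3 (left) and Cnga4 against Ano2 (right) in every library, in TPM on log axes, with replicate numbers beside the points. Colours are as in the plot of expression by library. Cngb1 and Adcy3 rise together in both groups (rho 0.964 in Taar5+ cells and 0.900 in controls), and rho of Cnga4 with Ano2 is 0.983 in controls and -0.214 in Taar5+ libraries.

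The genes whose levels ranked most like those of each transduction gene were sought among 8150 other genes with a mean of at least 10 TPM, over the same 16 libraries. For Gnal they were Ano2, Syt1 and Pcnxl4 (rho 0.938, 0.903 and 0.865), and for Ano2 they were Syt1, Pcnxl4 and Gnal (0.962, 0.950 and 0.938). For Cnga2 they were Ano2, Pcnxl4 and Srp54c (0.909, 0.903 and 0.888). Syt1 encodes a calcium sensor of synaptic vesicles. For Adcy3 they were 1700003E16Rik, Cngb1 and Vwa3a (0.941, 0.924 and 0.921), and for Cngb1 they were D430042O09Rik, Ccdc157 and Cnst (0.947, 0.947 and 0.941). For Cnga4 they were Elmod3, Ttc25 and Cmip (0.935, 0.929 and 0.929), and its nearest transduction gene, Cnga2, ranked only 118. For Gng13 they were Cox5a, Uqcrh and Atp5h (0.882, 0.882 and 0.877), all of them genes of mitochondrial oxidative phosphorylation, and for Gnb1 they were Mrps31, Nrn1l and Trappc1 (0.885, 0.871 and 0.856). Gnb1 ranked 49 for Gng13 and Gng13 ranked 55 for Gnb1, and 66 and 79 without control replicate 2. Without control replicate 2, over 15 libraries, the nearest gene was the same for 7 of the 8 genes, counting the tie of D430042O09Rik and Ccdc157 for Cngb1 (0.936 each), and for Gng13 it was Atox1 (0.868). The further genes named without it were Gpm6a for Gnal (0.839), Uqcr10 for Gnb1 (0.854) and Becn1 for Cnga2 (0.882).

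Of the other pathway genes, the list for receptor export and coupling held 7 genes, 6 of them in the table and tested. Of these 0 were called higher and 1 lower, at a list median of 0.24, while 21 of all 12502 genes tested were called (0.168%). The list was chosen with earlier results of these data known, so its count is not a test of the list. The gene called lower was Stoml3, a stomatin of OSN cilia, with a range of 2900 to 7921 TPM in Taar5+ and 8364 to 24318 TPM in control libraries (log2 fold change -1.42, SE 0.24, limma adjusted p = 0.00994). Every Taar5+ library lay below every control. Values for the most abundant others were 14669 and 12131 TPM for Omp, the olfactory marker protein (log2 fold change 0.38), 1068 and 784 TPM for Ric8b, a chaperone of the alpha subunit (0.43), 837 and 824 TPM for Rtp1 (0.053) and 574 and 548 TPM for Rtp2 (0.11), with adjusted p from 0.784 to 0.985.

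The list for response termination and ion homeostasis held 16 genes, of which 12 were tested and 0 were called in either direction, at a median of 0.11. Among its most abundant genes, Calm2 had 6852 and 6150 TPM in Taar5+ cells and controls (log2 fold change 0.11) and Calm3 had 186 and 197 TPM (0.027), both encoding calmodulin, which closes the channel. The phosphodiesterases that break down cyclic AMP had 253 and 228 TPM for Pde1c (0.072) and 284 and 261 TPM for Pde4a (0.23), and adjusted p for these 4 genes ran from 0.970 to 0.996. Of the 51 paralogs of the 8 genes, 22 were tested and 0 were called in either direction, at a median of 0.080. The most abundant were Gnao1 (105 and 86.0 TPM), Gng10 (81.9 and 96.6 TPM), Gng8, the gamma subunit of immature OSNs (56.3 and 113 TPM), Gng5 (63.2 and 88.4 TPM) and Gnb5 (87.3 and 61.8 TPM), each as the mean of Taar5+ cells and of controls, with limma adjusted p from 0.922 to 0.976.

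In the Taar6 line, with 1 library a group and no test, 0 of the 8 genes were over 2-fold apart on the log2(TPM + 1) scale, against 2841 of 15189 genes (18.7%). Gnal stood at 3169 TPM in the Taar6+ library and at 2416 TPM in its control, Gnb1 at 3653 and 3535, Gng13 5180 and 5358, and Adcy3 1358 and 1249. Cnga2 had 1505 and 1277 TPM, Cnga4 500 and 614, Cngb1 292 and 257, and Ano2 481 and 404. The log2 difference ran from -0.30 for Cnga4 to 0.39 for Gnal, with a median of 0.15 over the 8 genes and of -0.21 over all genes.

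Both Taar6-line libraries, reporter-positive and control alike, differed from the Taar5 line in the balance of subunits. Gnal, Gnb1 and Cngb1 lay above all 16 libraries of the Taar5 line in both. Gng13 lay below 14 of them. Gng13/Gnal was 1.63 and 2.22, against 4.37 to 13.9 in the Taar5 line, and Gng13/Gnb1 was 1.42 and 1.52, against 3.04 to 6.27. Cngb1/Cnga2 was 0.194 and 0.201, above the 0.129 of the highest library of the Taar5 line, and Cngb1/Cnga4 was 0.584 and 0.419, against at most 0.377. Line, reporter allele and age cannot be told apart here, and the difference between lines was not tested.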

How the data were processed

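Total RNA of sorted cells was measured in 18 libraries. Per the labels and the study's methods, the authors made Smart-seq2 libraries, trimmed reads with Trimmomatic 0.36, mapped them to mm10 with HISAT2 2.1.0 and quantified genes with Cufflinks 2.2.1. The deposited values are TPM, a length-corrected share of each library. How the TPM were derived, the annotation, and the handling of strand and multiply mapped reads are not given in the sources used here. Depth cannot be read from TPM, so sampling error of the reads is unknown.

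The 488 rows that repeat a symbol were summed. The Taar values of control replicate 2, identical to those of replicate 1 for 13 genes, were set missing, which touched none of the 8 genes. In the Taar5 line, genes that reached 1 TPM in 7 or more of its 16 libraries were compared on log2(TPM + 1) by limma 3.58.1 (R 4.3.3; linear model, empirical Bayes with a trend, checked on simulated data). P-values were adjusted over all genes by Benjamini-Hochberg, threshold 0.05. Low genes change by more than their fold on this scale shows. Ratios used log2((a + 1)/(b + 1)). Ratios and shares of paralogs were tested by exact two-sided permutation of libraries (Python 3.11.15, numpy 2.4.6), inverted for 95% intervals, and adjusted over 6 each. The smallest p these tests can give is 8.74e-05. Correlations used 100000 permutations over libraries. For the Taar6 line, values are given with no test. Intervals cover the spread between libraries only.

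The genes, the 3 pathway lists (74 genes), the 10 marker lists and the rule for named genes were chosen with earlier results of these data known. The rule names the 8 genes, every pathway gene with an adjusted p under 0.05, the 5 of each pathway list with the highest mean TPM, and the 3 genes of highest Spearman correlation with each of the 8, over 16 and over 15 libraries. A gene that this rule names is not reported here. Gnas was named after its values were seen. Alternatives were a pseudocount of 0.1, other filters, quantiles, rescaling after removal of receptor genes or relative to mature OSN genes, no trend, array weights, a replicate block, 10 controls and leaving out libraries. For ratios they were other pseudocounts and medians, and for shares a filter on paralogs. Chosen after seeing the data were leaving out control replicate 2 and Taar5+ replicate 5 together, a fit of the 14 numbered libraries with no block, and a block without number 2.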

Additional observations from a re-analysis of the deposited data

Results flagged for a closer look

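Within groups of the Taar5 line, 40 sets of values (8 levels, 6 ratios and 6 shares in 2 groups) were searched for a library set apart from its neighbours, by a gap between neighbouring values that exceeds Dixon's 95% critical value. For independent sets of normal values, chance would flag about 1 in 20, or 2 of 40. These sets share libraries and genes, and shares have an upper bound, so the 8 found cannot be set against that number. Control replicate 2 stood apart for Gnal (280 TPM, against 1070 to 1720 in other controls), Gnb1 (621 TPM, against 1655 to 2619) and the share of Gnal among Gnal and Gnas (78.4%, against 91.7% to 97.9%). Taar5+ replicate 5 stood apart for the share of Gnal (87.5%, against 95.2% to 99.98%), of Gng13 among gamma subunits (93.2%, against 97.9% to 98.9%) and of Cnga2 (99.97%, against at least 99.99%). Control replicate 8 had the highest Cnga4/Cnga2 ratio (0.943, against 0.453 to 0.689), and without it the fold stayed below 1 with an adjusted p of 0.171 (exact permutation test). Control replicate 6 had a share of Cnga2 of 99.9% against all of the summed TPM in other controls, with 2.80 TPM of Cnga3, which was listed at 0 in the others.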

How the results depend on the processing

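No alternative made any of the 8 genes other than Cnga4 pass the threshold, and none made a ratio or share pass. The count of genes called over the table, 21 (18 higher and 3 lower), was 109 with quantile normalization (35 higher and 74 lower), 1329 with array weights (181 and 1148) and 13 with a replicate block over 14 libraries, which gave 16 with no block. With the other alternatives chosen after seeing the data it was 337 without control replicate 2 and Taar5+ replicate 5, and 54 (19 and 35) for a replicate block without number 2. Leaving out single libraries gave 16 to 148, the extremes being without Taar5+ replicate 3 and without control replicate 2, and 66 without Taar5+ replicate 5. Of the 8 genes 1, Cnga4, was called with array weights (adjusted p = 0.0477) and in the block without number 2 (limma adjusted p = 0.0452).

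Values relative to mature OSN genes had the mean of Omp, Rtp1, Rtp2 and Slc17a6 subtracted, which moves every gene by the same amount. The other mature OSN markers, Stoml3 and Ric8b, were not used. Of the genes used, Slc17a6 had the largest log2 fold change, 1.05, and was listed at 0 in control replicate 2. The median of all genes then moved from 0.020 to -0.38. Log2 fold changes became -0.15 for Gnal, -0.11 for Gnb1, -0.18 for Gng13, -0.016 for Adcy3, -0.38 for Cnga2, -0.015 for Cngb1 and -0.33 for Ano2. Cnga4 moved to -0.93 (limma adjusted p = 0.396). Cnga2 was -0.084 with quantile normalization, -0.00046 with array weights, -0.10 without control replicate 2 and Taar5+ replicate 5 and -0.16 in the block without number 2, and Ano2 was -0.036 without those 2 libraries. Leaving out each library in turn gave 0.16 to 0.66 for Adcy3, 0.10 to 0.41 for Gnb1, 0.071 to 0.39 for Gng13, -0.14 to 0.12 for Cnga2, -0.066 to 0.21 for Ano2 and -0.018 to 0.36 for Gnal, each lowest without control replicate 2 except Adcy3, lowest without control replicate 4.

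The log2 difference in ratio changed sign for Gng13/Gnal (0.098) and Gng13/Gnb1 (0.11) with medians, for both (0.21 and 0.028) without control replicate 2 and Taar5+ replicate 5, and for Gnb1/Gnal (-0.0095) in the block without number 2. Over single libraries left out these ranged from -0.063 to 0.13 (Gnb1/Gnal), -0.18 to 0.093 (Gng13/Gnal) and -0.14 to 0.033 (Gng13/Gnb1). The shares, in percentage points, ranged from 1.65 to 5.12 for Gnal, -0.40 to 3.16 for Ano2, -0.012 to 0.10 for Adcy3 and -0.0055 to 0.011 for Cnga2. A filter on paralogs left none for Adcy3 and Cnga2, so no share was computed there. The cause of these changes was not tested.

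Both groups carry replicate numbers 1 to 7. Deviations of same-numbered libraries from their group means correlated from -0.0062 to 0.28, over 0.1 for 5 of 7 numbers. Libraries of unlike number correlated from -0.19 to 0.25, with a median of -0.018. The control of their own number was the best match for 3 of 7 Taar5+ libraries. The main fits do not pair the numbers, because numbers 2 and 6 stayed under 0.1 and the labels name no shared mice. Most numbers thus correlated more than the median unlike pair, and the main fits do not allow for a spread shared by number. With number as a block (14 libraries), Adcy3 was higher in 7 of 7 numbers (0.57, SE 0.17, limma adjusted p = 0.401), and Cngb1/Cnga4 was higher in 7 of 7 (log2 difference 1.07, exact sign permutation p = 0.0156, the smallest that 7 numbers allow, adjusted p = 0.0938). Cnga4/Cnga2 was lower in 6 of 7 (-0.52, exact permutation adjusted p = 0.125). No call for the 8 genes, ratios or shares changed with this block.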
